A study of Mus musculus with 9 samples.

Results

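Liver gene expression was compared between mice on low fat, high protein food (LF-HP) and mice on food high in fat with normal protein (HF-NP), so that protein stood against fat as the replacement for dietary carbohydrate. The comparison rests on 4 of the 9 pools of the series, the LF-HP and HF-NP pools of 1 and 12 weeks, chosen by diet and paired by week, which leaves 2 pools a side. LF-HP food gave 50% of its energy as protein, 10% as fat and 40% as carbohydrate, whereas HF-NP food gave 15%, 35% and 50%. All 3 nutrients thus differed, protein by 35, fat by -25 and carbohydrate by -10 points of energy (LF-HP minus HF-NP), and their parts in any difference cannot be told apart from these 4 pools. The low fat, normal protein diet (LF-NP) held 75% carbohydrate with 15% protein and 10% fat, and the high fat, high protein diet (HF-HP) held 15% carbohydrate with 50% protein and 35% fat. LF-NP pools are given as the carbohydrate-rich baseline of each week. All mice were male C57BL/6J, an inbred strain prone to diet-induced obesity, and had first eaten LF-NP for 2 weeks. Milk protein was the protein source and starch with sucrose the carbohydrate of every diet, whereas the fat was soybean oil in the low fat diets and soybean with palm oil in the high fat diets, so LF-HP and HF-NP differed in fat source too. A measured meal came 2 hours before the livers were taken, so the values describe the fed state. By the labels the mice were 13 weeks old after 1 week of diet and 22 weeks after 12, although the times in the protocol add up to 24 weeks for the latter. Each pool held the RNA of 5 mice and was read on 1 array, so the spread between animals was not measured.

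The liver receives dietary amino acids and sugars first, through the portal vein. Amino acids in excess of need are stripped of nitrogen by aminotransferases and deaminases, the nitrogen leaves as urea, and the carbon skeletons enter the tricarboxylic acid (TCA) cycle or become glucose. Dietary sugar drives glycolysis and the synthesis of fatty acids through the transcription factors ChREBP (gene Mlxipl) and SREBP-1c (Srebf1), while dietary fatty acids activate PPAR alpha, which turns on the genes of fatty acid oxidation.

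Expression came from Affymetrix arrays (Mouse Gene 1.0 ST) that carry several probes along the exons of each gene. Levels are given on the log2 scale of the robust multiarray average (RMA), on which a difference of 1 is a 2-fold change, and differences are LF-HP minus HF-NP unless stated otherwise. Array medians lay within 0.064 of each other. The 8 hepatocyte markers measured (Alb, Apob and Hnf4a among them) stood at 11.74 or above in every pool, on arrays whose values ran from 1.41 to 14.46. Of 19938 genes, 1668 had exactly equal values in the LF-HP and HF-NP pools of 1 week and 1288 in those of 12 weeks. The differences of the 2 weeks, which share no pool, correlated across genes with r = 0.292, where genes are no independent replicates.

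A single gene passed the test. Slc17a8, which encodes the vesicular glutamate transporter VGLUT3, fell in the LF-HP pools. Its level was 9.14 and 8.67 in the HF-NP pools of 1 and 12 weeks and 6.70 and 6.51 in the LF-HP pools. The pools of the 2 diets did not overlap. The mean difference of -2.30 (2 pools a side, SE 0.12 from the fit to the 8 diet pools) is a 4.94-fold lower level in LF-HP liver (adjusted p = 0.00927, limma with diet and week as terms over these 8 pools, Benjamini-Hochberg over all genes). The LF-NP pools stood at 8.41 and 8.39, the reference pool taken before the diets at 8.89 and the HF-HP pools at 6.50 and 6.12, so both high protein diets lay below every other pool. Across all genes this was 0.00502% called lower, and 0% were called higher. At an unadjusted p under 0.05, 525 genes (2.63%) were higher and 859 (4.31%) lower, where 997 in all would pass by the threshold alone. The adjusted p of Slc17a8 ranged from 0.000819 to 0.643 over the alternatives and lay above 0.05 with the 4 LF-HP and HF-NP pools alone (0.613), with additive terms for protein and fat (0.117), without the week term (0.0609) and without any 1 of the 8 pools, the highest being without LF-HP at 1 week.

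The promoter of Slc17a8 is shown because it is the only gene past the test. The 250 bases before its first listed start (RefSeq, GRCm38.p6, chr10:89621250-89621499, minus strand, printed along the gene from 5′ to 3′) hold none of the 3 motifs searched, which are TCACNCCAC (the sterol regulatory element core), TGATGNAA (the C/EBP-ATF response element core) and CACGTG (the E-box bound by clock factors), on either strand.
Slc17a8: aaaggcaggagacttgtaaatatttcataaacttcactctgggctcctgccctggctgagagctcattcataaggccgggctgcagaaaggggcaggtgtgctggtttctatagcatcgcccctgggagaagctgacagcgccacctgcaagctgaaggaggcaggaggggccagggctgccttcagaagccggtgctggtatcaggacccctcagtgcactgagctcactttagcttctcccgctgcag

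By size, 44 genes were more than 1.5-fold higher in LF-HP than in HF-NP liver in both weeks (0.221% of genes) and 31 were more than 1.5-fold lower in both (0.155%), whereas 11 passed that size in opposite directions. At 1 week alone 280 genes passed 1.5-fold in either direction, and at 12 weeks alone 288 did. These are counts by size and not calls. Apart from Slc17a8, the 75 genes had adjusted p between 0.107 (Tuba8) and 0.671, so their values are descriptions. The size threshold is 0.58 on the log2 scale. Just inside it, the smaller of the 2 weekly differences was 0.59 for Prdm10 and for Arrdc3 and 0.60 for Tbc1d8, and just outside 0.58 for Rnf125 and 0.57 for Spata13 and Fbf1. Whether the difference of 12 weeks departed from that of 1 week was tested with limma over the 8 diet pools. Its terms were protein, fat, week and the change of both nutrient terms with week. No gene passed (0% called, 289 genes at an unadjusted p under 0.05, smallest adjusted p = 0.194, 2 residual degrees of freedom). The fit took protein and fat to add up, so any departure from that is in its residual spread. That no gene passed does not show that the weeks agree.

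**Figure D1:**
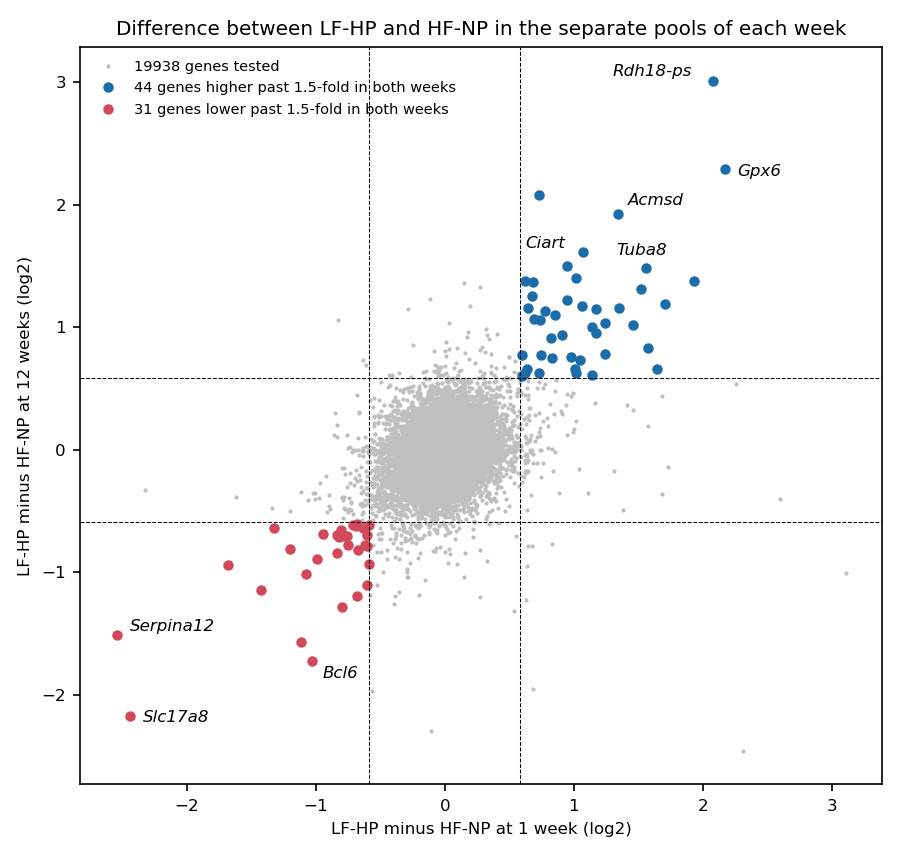
Each point is 1 gene, with its LF-HP minus HF-NP difference (log2) at 1 week on the x axis and at 12 weeks on the y axis, from separate pools. Blue points are the 44 genes and red points the 31 genes past 1.5-fold (dashed lines) in both weeks, and grey points are the other genes, most of which lie close to 0 on both axes. Slc17a8 lies at -2.44 and -2.17.

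The genes past 1.5-fold higher in LF-HP liver in both weeks included Acmsd, Nnmt, Got1 and Aldh1b1. Acmsd, the enzyme that turns tryptophan carbon away from NAD synthesis, stood at 8.80 and 7.68 in HF-NP pools of 1 and 12 weeks and at 10.14 and 9.60 in LF-HP pools (difference 1.63, SE 0.25). Nnmt, which methylates nicotinamide, stood at 11.17 and 11.15 against 12.34 and 12.11 (1.06, SE 0.12). Got1, the cytosolic aspartate aminotransferase, stood at 11.96 and 11.08 against 12.91 and 12.31 (1.09, SE 0.16). In all 3 genes both LF-HP pools lay above both HF-NP pools. The HF-HP pools also lay above every LF-NP and HF-NP pool, with Acmsd at 10.28 and 10.37, Nnmt at 12.33 and 12.48 and Got1 at 12.91 and 12.73. Aldh1b1, a mitochondrial aldehyde dehydrogenase, had 7.31 and 7.27 in HF-NP pools and 8.37 and 8.45 in LF-HP pools (1.12, SE 0.18).

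Other large differences belonged to genes of varied function. Gpx6, a member of the glutathione peroxidase family, stood at 7.06 and 6.96 in HF-NP pools and 9.23 and 9.25 in LF-HP pools (2.23, SE 0.40). Rdh18-ps, annotated as a retinol dehydrogenase pseudogene, stood at 5.62 and 4.59 against 7.70 and 7.60 (2.55, SE 0.41), the largest mean difference of the 75 genes. Whether its probes also read transcripts of related genes was not tested. Tuba8, an alpha tubulin, had 6.07 and 5.88 against 7.62 and 7.37 (1.52, SE 0.13), and its HF-HP pools stood higher still at 9.16 and 8.90. Slc16a5, a monocarboxylate transporter, had 7.32 and 6.67 against 9.26 and 8.05 (1.66, SE 0.27). Differences of 1.45, 1.42 and 1.16 were found for Sftpa1, a lung surfactant protein, for Lrtm1, a leucine-rich repeat membrane protein, and for H1f2, a linker histone. These genes were chosen for being higher in LF-HP in both weeks, so that shared direction is no separate result.

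The genes lower in LF-HP liver included secreted factors, an enzyme of thyroid hormone activation and a transcriptional repressor. Serpina12, which encodes the insulin-sensitising adipokine vaspin, stood at 7.70 and 7.94 in HF-NP pools and 5.16 and 6.43 in LF-HP pools (-2.02, SE 0.31). Inhba, the activin beta A subunit, had 8.05 and 8.13 against 6.37 and 7.19 (-1.31, SE 0.32). Dio1, which converts thyroxine to active thyroid hormone, had 10.43 and 10.41 against 9.60 and 9.57 (-0.84, SE 0.12). In these 3 genes no LF-HP pool reached an HF-NP pool. Bcl6, a transcriptional repressor that opposes growth hormone signalling through STAT5, had 9.18 and 8.88 against 8.15 and 7.15 (-1.38, SE 0.39), and here the LF-NP pools at 8.03 and 8.75 lay lower than HF-NP.

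Osgin1, a stress-inducible growth inhibitor, stood at 9.60 and 9.89 in HF-NP pools and 8.49 and 8.32 in LF-HP pools (-1.34, SE 0.14). Gask1a, a Golgi-associated kinase-like protein, had 7.03 and 6.82 against 5.60 and 5.68 (-1.28, SE 0.12). Csad, the enzyme that makes taurine precursors from cysteine, had 9.39 and 8.71 against 8.32 and 7.70 (-1.04, SE 0.24). For Csad the HF-HP pools at 8.91 and 8.88 lay well above the LF-HP pools, unlike for Osgin1 (8.71 and 8.50) and Gask1a (5.28 and 5.25). Lgr5, the R-spondin receptor of pericentral hepatocytes, Aqp8, a water channel of the canalicular membrane, and Cyp2d40, a cytochrome P450, differed by -1.04 to -0.94. Being lower in both weeks was a condition of their choice. Pericentral genes did not share the fall of Lgr5. Of 15 listed, Aldh1b1 among them, 6 were higher and 7 lower in both weeks (median -0.03).

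**Figure D2:**
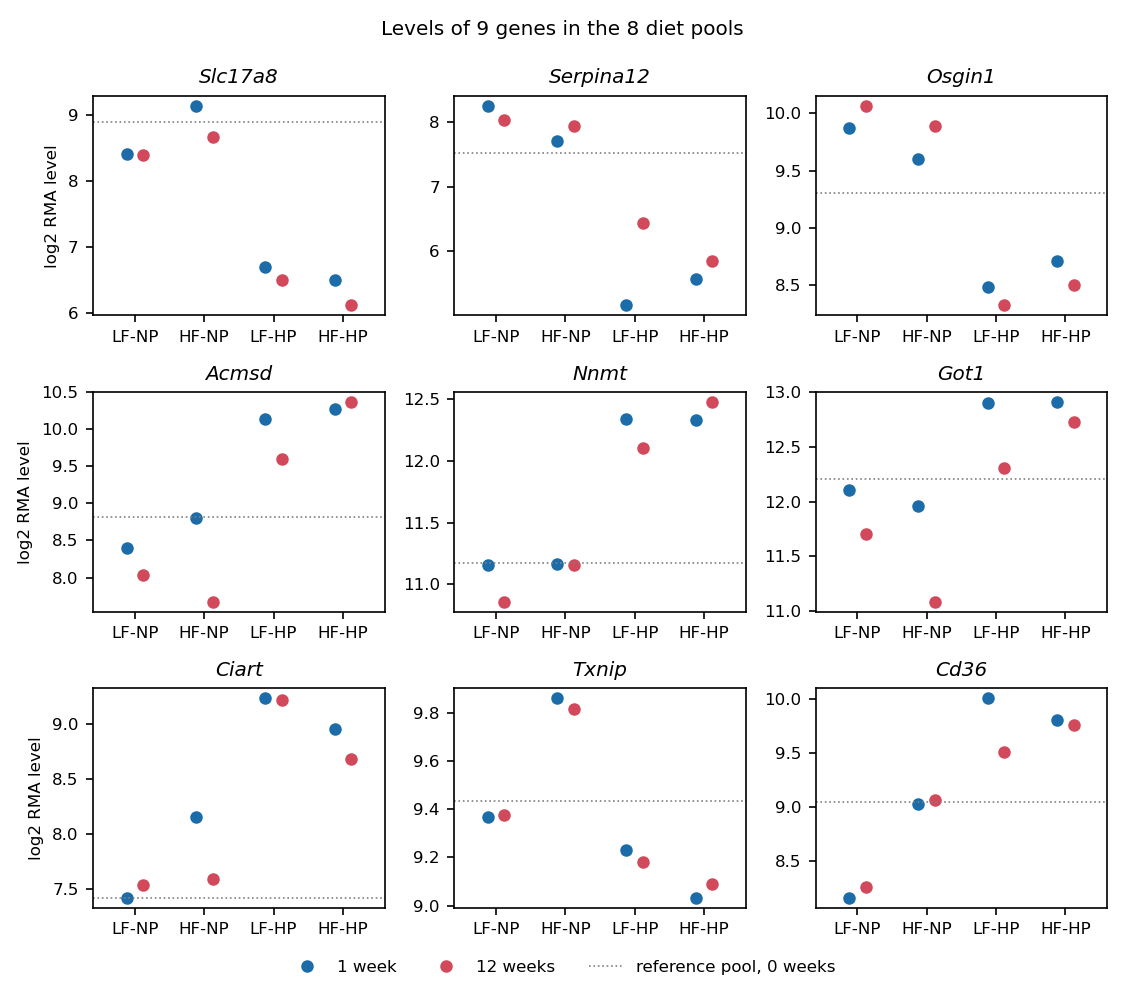
Log2 RMA level (y axis) of 9 genes in the pools of the 4 diets (x axis) after 1 week (blue) and 12 weeks (red), each point 1 pool of 5 mice, with the reference pool as a dotted line. Slc17a8, Serpina12 and Osgin1 were low and Acmsd, Nnmt, Got1 and Ciart high in both high protein diets, Txnip was highest in HF-NP (9.86 and 9.82), and Cd36 stood lowest in LF-NP (8.16 and 8.26). The y axes do not start at 0 and differ between panels.

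The pathways were described through 50 gene lists that were chosen with earlier results of these data known. A share beyond that of all genes is thus a description and no independent support. In all 50 lists 0 members passed the test in either direction. Lists are therefore given by how many members lay on the same side of 0 in both weeks and by their median, beside the same for all genes, of which 23.6% were higher and 26.2% lower in both weeks and the median difference was -0.0032. Genes with equal values in a week count on neither side, and those equal at 1 week had a median level of 4.71. How far the shares depend on expression level was not tested. Some genes stand in more than 1 list. The lists around amino acid breakdown had more members higher than lower in both weeks. Some members build amino acids or restrain their breakdown, such as Asns, Glul, Aldh18a1 and Bckdk, so not every member counted is a breakdown gene. Of 11 genes in the list of aminotransferases and glutamate deamination 9 were higher in both weeks (median 0.15). Of 12 genes of lysine, proline and arginine metabolism 9 were higher in both weeks (0.13). Of 19 genes of branched-chain amino acid breakdown 13 were (0.12), and of 9 of phenylalanine, tyrosine and histidine breakdown 6 (0.23). At an unadjusted p under 0.05 these 4 lists had 2, 3, 2 and 4 higher members and 0 lower ones. The 12 tryptophan and NAD genes, which include Acmsd and Nnmt, had a smaller median of 0.08, with 6 higher and 1 lower in both weeks and 4 higher at an unadjusted p under 0.05.

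Within them, Oat, ornithine aminotransferase, stood at 11.99 and 11.92 in HF-NP pools and 12.65 and 12.26 in LF-HP pools (0.50, SE 0.11). Aass, the first enzyme of lysine breakdown, had 11.70 and 11.31 against 12.20 and 11.75 (0.47, SE 0.12). Differences were 0.34 for Prodh (proline dehydrogenase), 0.48 for Kyat1 (kynurenine aminotransferase), 0.32 for Bckdhb (a subunit of the branched-chain keto acid dehydrogenase), 0.32 for Ivd (leucine breakdown) and 0.28 for Uroc1 (histidine breakdown). The urea cycle, which disposes of the nitrogen, had 7 of 8 genes higher in both weeks, with a median of 0.19. Slc25a15, its mitochondrial ornithine carrier, had the largest difference there at 0.38 (SE 0.12), followed by Asl (argininosuccinate lyase) at 0.29 and Arg1 (arginase) at 0.26.

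Transsulfuration and glycine metabolism were mixed. Cth, which makes cysteine from cystathionine, stood at 11.48 and 10.99 in HF-NP pools and 12.05 and 11.61 in LF-HP pools (0.60, SE 0.11), and Ethe1, a sulfide-oxidising enzyme, at 8.08 and 7.74 against 8.62 and 8.46 (0.63, SE 0.13), whereas Csad of the same list lay lower. The 15 genes of methionine and cysteine metabolism had a median of 0.05, with 7 higher and 1 lower in both weeks. Of 15 serine, glycine and threonine genes 9 were higher and 3 lower in both weeks (median 0.17), led by Gcat (0.45), Gnmt (0.44), which uses up methyl groups, and Agxt (0.43), which converts glyoxylate to glycine.

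Of 23 amino acid transporters 14 were higher and 4 lower in both weeks (median 0.17). Slc7a2, the cationic amino acid transporter CAT2, stood at 11.25 and 10.78 in HF-NP pools and 12.16 and 11.72 in LF-HP pools (0.92, SE 0.16), and Slc43a1, a transporter of neutral amino acids, at 7.64 and 7.13 against 8.50 and 8.23 (0.98, SE 0.19). Slc1a4 differed by 1.02 at 1 week and by 0.24 at 12 weeks. The 23 targets of ATF4, the transcription factor of the amino acid response, had medians of 0.18 at 1 week and -0.03 at 12 weeks. Their median over both weeks was 0.07, with 8 higher and 4 lower in both. Asns, asparagine synthetase, stood at 5.71 and 5.21 in HF-NP pools, 5.99 and 5.85 in LF-HP pools and 8.78 and 7.21 in HF-HP pools. The motif TGATGNAA was searched within 300 bases around the start (250 before, 50 after). It lay there in 8 of 21 ATF4 targets with a promoter in the table (38.1%) and in 3.62% of all 15614 genes matched. The list was drawn up as ATF4 targets, so this share is no separate finding. Motif shares here and below describe the lists and not the diets.

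The mitochondrial lists had small differences that lay mostly on 1 side. All 15 ATP synthase genes were higher in LF-HP pools in both weeks, with a median of 0.21, as were 29 of 34 genes of respiratory complex I (0.13), 17 of 20 of complexes III and IV (0.16) and 16 of 20 of the TCA cycle (0.16). No member was lower in both weeks in the first 3, and 1 was in the TCA cycle. Members of a list were read in the same pools, so these counts are not independent. Idh2, mitochondrial isocitrate dehydrogenase, stood at 9.99 and 9.67 in HF-NP pools and 10.49 and 10.26 in LF-HP pools (0.54, SE 0.11), Fh1, fumarase, at 10.84 and 10.54 against 11.41 and 11.04 (0.53, SE 0.14), and Idh3a at 9.18 and 8.76 against 9.56 and 9.19 (0.41, SE 0.12). Against LF-NP of the same week, the median of the ATP synthase genes was 0.16 and 0.11 in LF-HP at 1 and 12 weeks and 0.00 and -0.07 in HF-NP. Ppargc1a, a coactivator of both mitochondrial and gluconeogenic genes, stood at 7.90 and 7.64 in HF-NP pools and 9.15 and 8.68 in LF-HP pools (1.14, SE 0.20). Of the 15 gluconeogenesis genes 8 were higher and 2 lower in both weeks (median 0.09), with Pck1, its controlling enzyme, at 0.32 (SE 0.16).

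Genes of sugar use were lower in LF-HP liver, 12 of 16 in both weeks and 3 higher, with a median of -0.25 (-0.29 at 1 week and -0.26 at 12 weeks). Pklr, liver pyruvate kinase, stood at 11.35 and 11.73 in HF-NP pools and 10.58 and 11.25 in LF-HP pools (-0.63, SE 0.18). Gpd1 and Gpd2, which carry reducing equivalents and glycerol phosphate between glycolysis and fat synthesis, both differed by -0.47. Set against LF-NP of the same week, the list had medians of -0.27 and -0.33 in LF-HP and -0.08 and -0.15 in HF-NP. LF-HP food held 35 points less carbohydrate and 35 more protein than LF-NP food. HF-NP food held 25 points less carbohydrate and 25 more fat, so the parts of these nutrients cannot be told apart.

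Lipogenesis had medians of -0.28 at 1 week and 0.01 at 12 weeks over 21 genes (8 lower and 3 higher in both weeks). Fasn, fatty acid synthase, stood at 11.92 and 12.06 in HF-NP pools and 11.07 and 12.36 in LF-HP pools, so the sign of its difference turned between the weeks. Scd1, stearoyl-CoA desaturase, lay between 13.51 and 13.65 in all 4 pools. Mlxipl itself was lower in both weeks, with 10.93 and 10.71 in HF-NP pools and 10.52 and 10.33 in LF-HP pools (-0.39, SE 0.10). Txnip, a glucose-responsive arrestin that limits sugar uptake, stood at 9.86 and 9.82 in HF-NP pools and 9.23 and 9.18 in LF-HP pools (-0.63, SE 0.08), and the LF-NP pools at 9.37 and 9.38 lay between. A difference of -0.32 was found for Pnpla3, a triglyceride lipase and SREBP target.

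Cholesterol synthesis showed opposite medians in the 2 weeks, -0.30 at 1 week and 0.19 at 12 weeks over 17 genes, with 2 higher and 4 lower in both. Both diets stood above LF-NP for this list, HF-NP with medians of 0.56 and 0.25 at 1 and 12 weeks and LF-HP with 0.37 and 0.38. Sqle, squalene epoxidase, was 8.68 and 7.99 in HF-NP pools, 8.10 and 8.40 in LF-HP pools and 7.42 and 6.89 in LF-NP pools. Hmgcs1, which makes the precursor of mevalonate, was 9.45 and 9.21 in HF-NP pools and 8.93 and 8.93 in LF-HP pools (-0.40, SE 0.13), and Fdft1, squalene synthase, 10.44 and 10.58 against 9.96 and 10.33 (-0.36, SE 0.14). Ebp, a sterol isomerase, differed the other way (0.27, SE 0.09). The motif TCACNCCAC lay in the 300-base window of 1 of 14 cholesterol genes with a promoter in the table (7.14%, Hmgcs1) and of 1.4% of all genes.

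Lists of fat handling had medians close to 0. The 28 genes of fatty acid oxidation had a median of -0.03 (4 higher and 12 lower in both weeks), and the 27 PPAR alpha targets -0.03 (8 and 12). At 1 week both diets lay above LF-NP for the PPAR alpha targets, with medians of 0.30 in LF-HP and 0.37 in HF-NP, and at 12 weeks these were -0.04 and 0.09. Cyp4a14, an omega-hydroxylase that is among the most responsive PPAR alpha targets, was 13.22 and 12.33 in HF-NP pools, 13.40 and 12.65 in LF-HP pools and 11.88 and 12.13 in LF-NP pools. Pdk4, which restrains pyruvate oxidation, was 7.93 and 7.40 in HF-NP pools and 7.62 and 6.74 in LF-HP pools (-0.49, SE 0.30).

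Members of the fat uptake list differed both ways (median 0.03, 8 higher and 6 lower in both weeks). Cd36, a fatty acid translocase, stood at 9.03 and 9.07 in HF-NP pools and 10.01 and 9.51 in LF-HP pools (0.71, SE 0.15), and Acsl4, a ligase that prefers arachidonate, at 9.85 and 9.23 against 10.26 and 10.18 (0.68, SE 0.14). Fabp2, a fatty acid binding protein, stood at 10.57 and 10.62 against 9.97 and 9.51 (-0.86, SE 0.13). Lipid droplet genes had a median of 0.02, with Pnpla2, adipose triglyceride lipase, at 0.50 (SE 0.12) and G0s2, its inhibitor, with a difference of -0.44 (SE 0.13). Cidec, a droplet fusion protein, stood at 6.76 and 6.59 in HF-NP pools and 6.77 and 6.69 in LF-HP pools. Of 20 VLDL and apolipoprotein genes 6 were higher and 8 lower in both weeks (median -0.05), with Apoa4 at -0.67 (SE 0.24) and Tm6sf2, which loads VLDL with lipid, at 0.53 (SE 0.13).

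**Figure D3:**
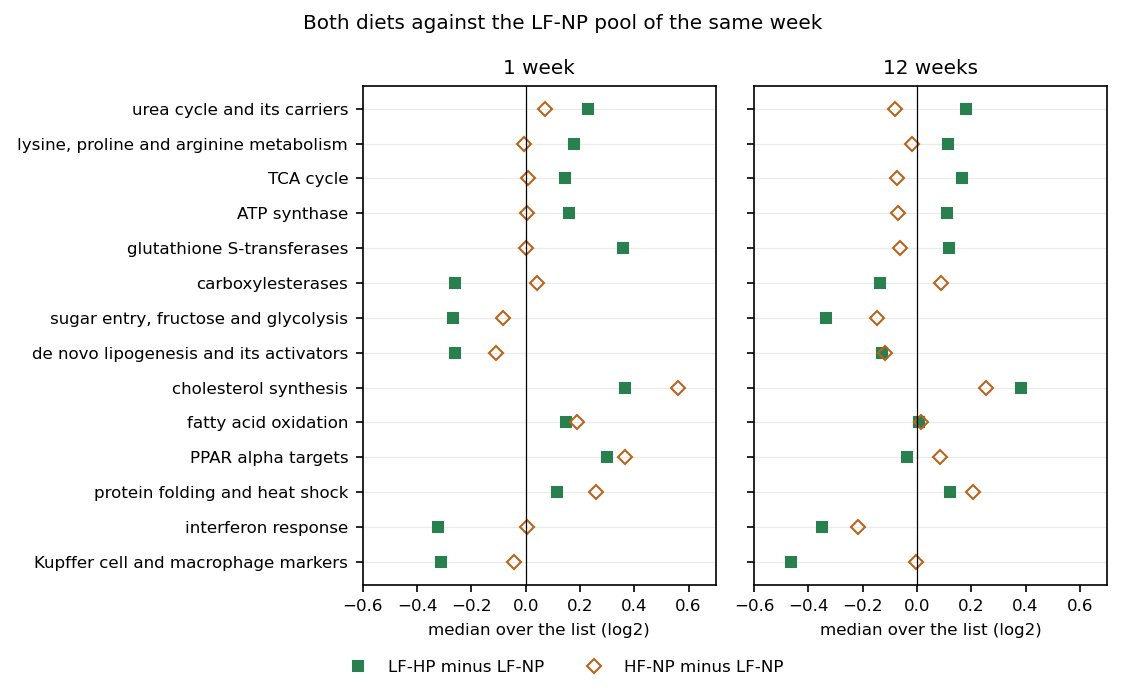
Median over each list of the log2 difference from the LF-NP pool of the same week, for LF-HP (green squares) and HF-NP (open diamonds), at 1 week on the left and 12 weeks on the right. Both sets of points use the same LF-NP pools and are shown as values. Cholesterol synthesis lies above 0 in both diets and weeks, while sugar use lies below 0 and lower in LF-HP, at -0.27 and -0.33, than in HF-NP, at -0.08 and -0.15.

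Detoxification genes split by family. Of 17 glutathione S-transferases 12 were higher and 1 lower in both weeks (median 0.28), and 9 were higher at an unadjusted p under 0.05. Gstt3 stood at 8.32 and 8.57 in HF-NP pools and 9.96 and 9.23 in LF-HP pools (1.15, SE 0.21), Gstm2 at 8.32 and 8.56 against 9.33 and 9.19 (0.82, SE 0.13) and Gsta4, which detoxifies lipid peroxidation products, at 8.33 and 8.31 against 8.91 and 8.87 (0.57, SE 0.11). Carboxylesterases lay the other way, 10 of 14 lower and 1 higher in both weeks (median -0.28, 9 lower at an unadjusted p under 0.05), led by Ces4a (-0.73), Ces1e (-0.57) and Ces2b (-0.54). Genes of these 2 families are similar in sequence, and probes may read more than 1 member. Of 19 NRF2 targets 7 were higher and 7 lower in both weeks (median 0.03), whereas at an unadjusted p under 0.05, 0 were higher and 4 lower. Differences in this list ran from -1.34 (Osgin1, described above) to 0.26. Nfe2l2, which encodes NRF2, and Gclc, the limiting enzyme of glutathione synthesis, differed by -0.48 (SE 0.12) and -0.42 (SE 0.12). The 26 drug-metabolising P450 genes had a median of -0.03, and Cyp3a11 differed by -0.56 (SE 0.38).

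Bile acid genes had a median of -0.02 and 2 large members. Cyp39a1, an oxysterol hydroxylase, stood at 8.02 and 7.41 in HF-NP pools and 9.37 and 8.57 in LF-HP pools (1.26, SE 0.23), and Slco1a4, a bile acid and drug uptake carrier, at 6.98 and 7.64 against 8.56 and 8.47 (1.21, SE 0.28). LF-NP pools of Cyp39a1 stood at 8.48 and 8.70, between the HF-NP and LF-HP pools at 1 week and above both at 12 weeks. Nr0b2, which encodes the repressor SHP, differed by -0.29 and -1.03 at 1 and 12 weeks.

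Chaperones and heat shock proteins were lower in LF-HP than in HF-NP liver, 17 of 24 in both weeks and 1 higher, with medians of -0.16 at 1 week and -0.38 at 12 weeks. At an unadjusted p under 0.05, 12 were lower. Creld2, an endoplasmic reticulum stress protein, stood at 10.87 or above in HF-NP pools and at 10.52 and 9.88 in LF-HP pools (-0.74, SE 0.13), and Sdf2l1, a component of a chaperone complex of that organelle, at 10.25 and 10.19 against 9.98 and 9.26 (-0.59, SE 0.15). In LF-NP pools Creld2 was 10.20 and 9.69 and Sdf2l1 9.45 and 9.04, below HF-NP in both weeks. Against LF-NP the list had medians of 0.26 and 0.21 in HF-NP and of 0.12 and 0.12 in LF-HP. Hspb1, a small heat shock protein, differed by -0.36 and -1.16 in the 2 weeks, so its mean of -0.76 (SE 0.27) rests mainly on 12 weeks.

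Clock genes as a list had a median of -0.02, with 5 of 18 higher and 5 lower in both weeks. Ciart, a repressor of the CLOCK-BMAL1 complex, stood at 8.16 and 7.60 in HF-NP pools and 9.23 and 9.21 in LF-HP pools (1.35, SE 0.16), with LF-NP at 7.42 and 7.53. Noct, which encodes the rhythmic phosphatase nocturnin, stood at 8.75 and 8.36 against 9.53 and 9.50 (0.95, SE 0.17). Bhlhe40, a repressor that also binds E-boxes, was lower, at 9.21 and 9.30 against 8.57 and 8.86 (-0.54, SE 0.11). The promoters of Ciart and Noct are printed because these were the clock genes with the largest differences. Both are the 250 bases before the start along the gene (RefSeq, GRCm38.p6, Ciart chr3:95882229-95882478, minus strand, and Noct chr3:51224197-51224446, plus strand), with E-boxes CACGTG in capitals. Ciart holds 3, whose first bases lie 116, 58 and 44 bases before the start, and Noct 0, which says only that these letters are not in this window.
Ciart: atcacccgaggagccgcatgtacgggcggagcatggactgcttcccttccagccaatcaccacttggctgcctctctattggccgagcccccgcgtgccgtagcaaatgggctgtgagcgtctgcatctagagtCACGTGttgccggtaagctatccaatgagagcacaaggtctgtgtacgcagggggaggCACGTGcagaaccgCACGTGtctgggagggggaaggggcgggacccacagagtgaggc
Noct: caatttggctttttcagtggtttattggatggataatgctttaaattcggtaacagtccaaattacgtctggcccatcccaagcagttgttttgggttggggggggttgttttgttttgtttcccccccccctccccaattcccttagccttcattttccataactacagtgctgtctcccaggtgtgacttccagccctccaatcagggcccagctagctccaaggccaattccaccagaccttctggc
Counting 50 bases after the start as well, the E-box was in 5 of 16 clock genes with a promoter in the table (31.2%) and in 9.5% of all genes.

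Hormone and growth factor genes differed one by one, with a list median of 0.03. Cish, an inhibitor of cytokine and growth hormone signalling, stood at 6.42 and 6.62 in HF-NP pools and 7.04 and 7.99 in LF-HP pools (1.00, SE 0.38). Inhbe, a further inhibin subunit secreted by liver, differed by -0.68 (SE 0.17), and Igfbp1, an insulin-suppressed binding protein, by 1.00 at 1 week and 0.17 at 12 weeks. Of the immediate early genes Klf10 differed by -0.76 (SE 0.13), Egr1 by -0.63 (SE 0.18) and Myc by 0.28 and 1.33 in the 2 weeks. Orm2, an acute phase protein, stood at 7.49 and 9.52 in HF-NP pools and 9.75 and 10.05 in LF-HP pools, so that it differed by 2.26 at 1 week and by 0.54 at 12 weeks. The list of 20 acute phase genes did not follow Orm2, with a median of -0.08 and 4 higher and 7 lower in both weeks. Ppat, the first enzyme of purine synthesis, stood at 7.44 and 6.78 against 8.13 and 7.85 (0.88, SE 0.20), while its list had a median of 0.05.

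**Figure D4:**
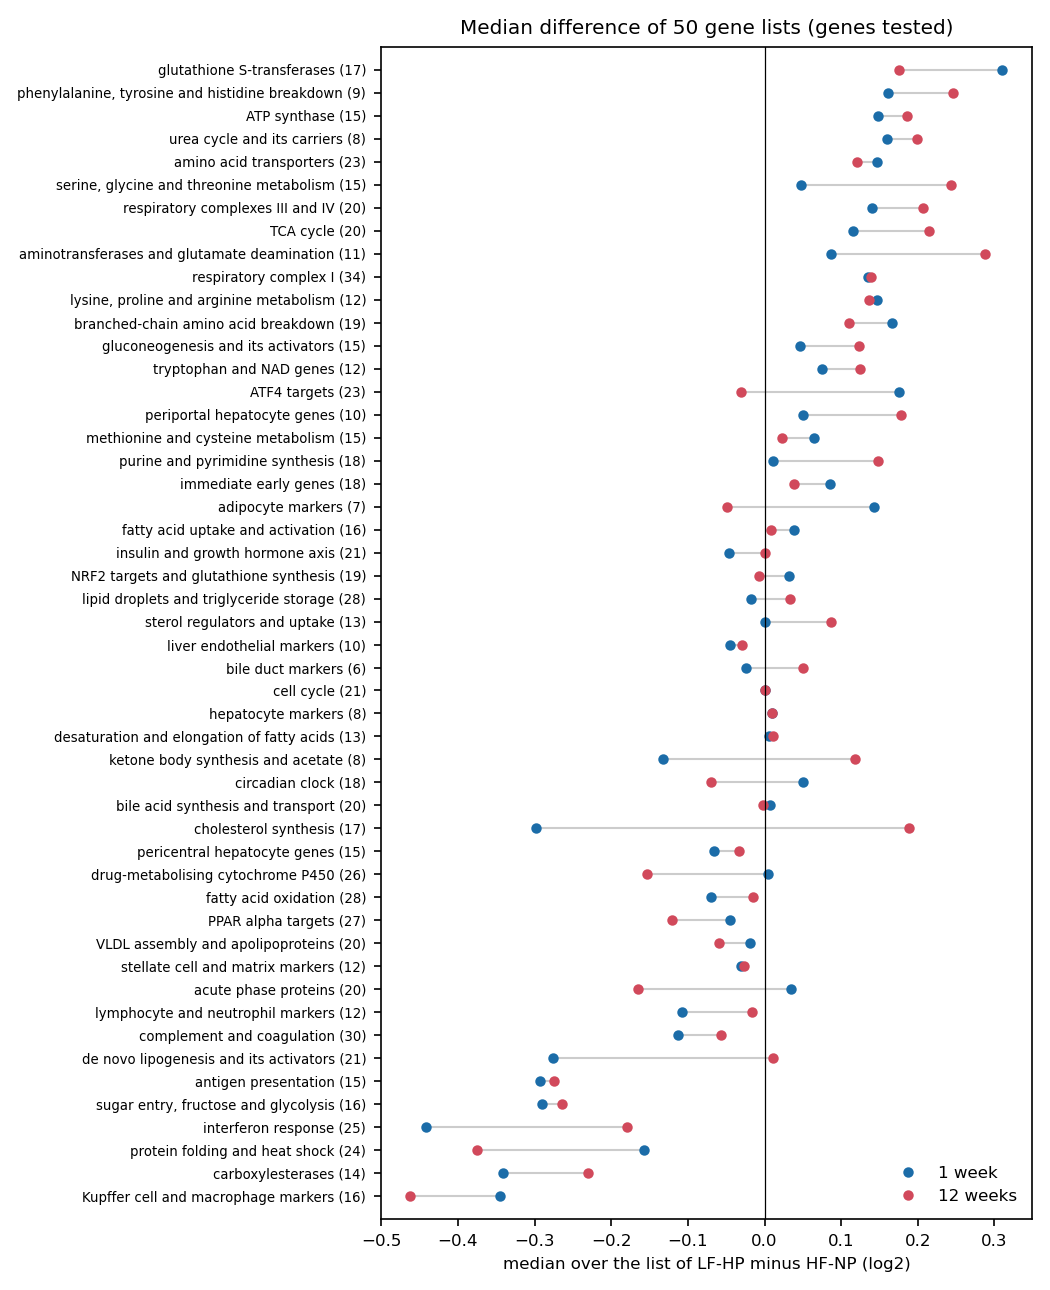
Median LF-HP minus HF-NP difference (log2, x axis) of each of the 50 lists (y axis, number of genes tested in parentheses) at 1 week (blue) and 12 weeks (red), joined by a grey line. Lists at the top (glutathione S-transferases, 0.31 and 0.18) lie above 0 and those at the bottom (Kupffer cell and macrophage markers, -0.34 and -0.46) below 0 in both weeks, while cholesterol synthesis crosses 0.

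Immune genes were lower in LF-HP liver. Of 16 Kupffer cell and macrophage markers 12 were lower and 2 higher in both weeks, with a median of -0.43, and all 12 were lower at an unadjusted p under 0.05. Adgre1, which encodes the macrophage antigen F4/80, stood at 7.36 and 7.63 in HF-NP pools and 6.84 and 6.94 in LF-HP pools (-0.60, SE 0.08). C1qb, a complement C1q chain made by macrophages, stood at 9.31 and 10.22 against 8.82 and 9.55 (-0.58, SE 0.16), and Vsig4, a complement receptor of Kupffer cells, at 9.08 and 9.94 against 8.67 and 9.31 (-0.52, SE 0.18). C1qb and Vsig4 also differed between the weeks, and the LF-HP pool of 12 weeks lay above the HF-NP pool of 1 week for both. In whole liver RNA, fewer cells of a type and less RNA per cell cannot be told apart.

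The mean level of the 16 markers was 7.10 and 7.46 in HF-NP pools, 6.84 and 7.08 in LF-HP pools, 7.11 and 7.56 in LF-NP pools and 7.54 and 7.53 in HF-HP pools, so the 2 high protein diets stood apart from each other. The reference pool lay between the 2 LF-HP pools. Hepatocyte markers had means of 13.33 and 13.33 in HF-NP pools and 13.34 and 13.38 in LF-HP pools. Lymphocyte and neutrophil markers had a median difference of -0.08, stellate cell markers -0.05, endothelial markers 0.02, bile duct markers 0.01 and adipocyte markers 0.04. In LF-HP and HF-NP pools the lymphocyte and neutrophil markers had mean levels of 4.09 to 4.26. Bile duct markers had 5.01 to 5.13 and adipocyte markers 5.32 to 5.56. These levels lay below every array median (5.83 or above), so the medians of these 3 lists say little about such cells.

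**Figure D5:**
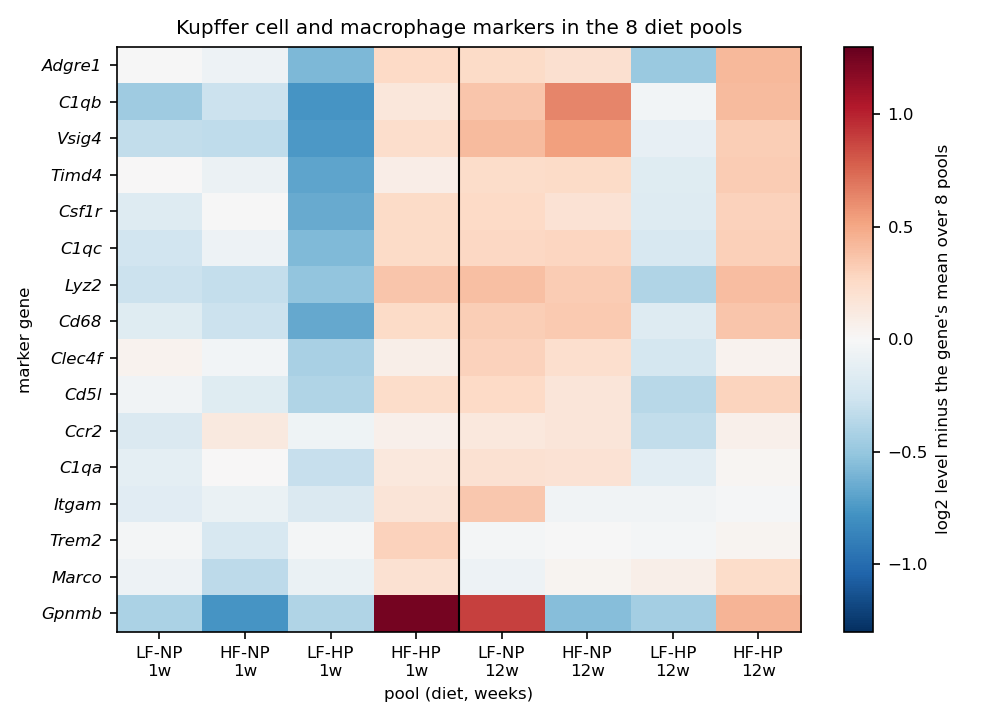
Log2 level of 16 Kupffer cell and macrophage markers (y axis) in the 8 diet pools (x axis, 1 week left of the line and 12 weeks right), as the difference from each gene's mean over the 8 pools (blue lower, red higher). The LF-HP column is the bluest of its week for most markers, as for Adgre1 (6.84 and 6.94), whereas Trem2, Marco, Itgam and Gpnmb do not follow it.

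Interferon response genes were lower in 18 of 25 cases in both weeks and higher in 1, with medians of -0.44 at 1 week and -0.18 at 12 weeks, and 12 were lower at an unadjusted p under 0.05. Mx2 and Ifit1, antiviral effectors, stood at 5.76 and 5.27 and at 7.37 and 7.43 in HF-NP pools and at 4.55 and 4.77 and at 6.82 and 6.66 in LF-HP pools. Their mean differences were -0.85 (SE 0.18) and -0.67 (SE 0.14). The Mx2 levels lay below every array median (5.83 or above), so its difference calls for caution, whereas those of Ifit1 lay above 5.83. Antigen presentation had 8 of 15 lower and 2 higher in both weeks (median -0.19), led by the class II genes Cd74 (-0.81, SE 0.15), H2-Aa (-0.76, SE 0.18) and H2-Eb1 (-0.74, SE 0.14). H2-Aa stood at 7.64 and 8.09 in HF-NP pools, 6.89 and 7.32 in LF-HP pools and 7.78 and 7.61 in HF-HP pools. The mean level of the 25 interferon genes was 7.42 and 7.28 in HF-NP pools, 7.01 and 7.08 in LF-HP pools and 7.26 and 7.14 in HF-HP pools. Among the diet pools of each week the mean of the macrophage markers was lowest in LF-HP, as given above, and their part in these lists was not tested.

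The 2 diets left out of the comparison, HF-HP and LF-NP, come from other pools and also differ by 35 points of protein. Carbohydrate was again lower on the high protein side (15% in HF-HP, 75% in LF-NP), whereas fat was higher there (35% against 10%). The parts of protein and carbohydrate in a shared direction cannot be told apart. The comparison of HF-HP with LF-NP was added after the values were seen. Of the 44 genes higher in LF-HP past 1.5-fold, 39 were higher in HF-HP than in LF-NP in both weeks, 25 of them past 1.5-fold, and 1 (Cish) was lower in both, where 22.8% of all genes were higher and 0.492% higher past 1.5-fold. Of the 31 genes lower in LF-HP, 26 were lower in HF-HP than in LF-NP in both weeks, 13 of them past 1.5-fold, and 1, an immunoglobulin kappa variable segment, was higher, where 25.1% of all genes were lower and 0.321% lower past 1.5-fold. The medians of the HF-HP minus LF-NP difference were 0.82 and 1.08 at 1 and 12 weeks over the 44 genes and -0.56 and -0.88 over the 31. By list, it was 0.32 and 0.03 for the macrophage markers and 0.12 and 0.26 for the chaperones, both negative between LF-HP and HF-NP, and -0.41 and -0.41 for sugar use and 0.10 and 0.24 for ATP synthase, on the same side as between LF-HP and HF-NP.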

How the data were processed

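Pools of liver RNA from 5 mice each were hybridised to 1 array per diet and week, and the authors deposited 1 value per probe set on the log2 scale, background-corrected, quantile normalised and summarised by RMA (version not given in the sources used here). Probe sets with 1 gene symbol were kept (21789 of 35556) and the brightest was taken for the 999 genes with several, leaving 19938 genes. The LF-HP minus HF-NP contrast was fitted in R 4.3.3 by limma 3.58.1 to the 8 diet pools, its terms being the 4 diets and week (3 residual degrees of freedom, prior 3.64), so that pools were paired by week. P-values were adjusted by Benjamini-Hochberg at 0.05. Since 1 pool stood for each diet and week, p-values measure the spread left after diet and week. Each SE is that of the same limma fit, so it draws on all 8 diet pools and on limma's prior, not on the 4 compared pools alone. Precision is limited by the number of arrays. Gene lists (941 entries, 81 without a value) and their members were chosen with earlier results of these data known. Named genes were the 12 a side past the test or, in their place, largest in both weeks, 3 per list and the landmarks Acmsd, Serpina12, Cyp4a14, Scd1, Sqle, Fasn, Pdk4 and Cidec. Other genes were named after their values were seen. Promoters came from RefSeq (GRCm38.p6). Figures were drawn with matplotlib 3.10.9 and tables made with NumPy 2.4.6 and pandas 2.3.3 under Python 3.11.15.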

Additional observations from a re-analysis of the deposited data

How the results depend on the processing

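Each diet and week had 1 pool, so animal spread, pool and array cannot be told apart, and the test rests on few degrees of freedom. Without the replicate block of week the adjusted p of Slc17a8 was 0.0609, with additive terms 0.117 and with the 4 LF-HP and HF-NP pools alone 0.613, which gave 0 genes lower. Leaving out 1 of the 8 pools gave 0 genes lower each time (adjusted p of Slc17a8 from 0.0722 to 0.643) and 0 higher, while its difference stayed between -2.44 and -2.17. With the mean of all probe sets, an intensity trend or array weights its adjusted p was 0.00875, 0.00616 and 0.00643. Keeping genes above the median level gave 5 higher (Tuba8, Ciart, Etnppl, H1f2, Nnmt) and 6 lower (Slc17a8, Osgin1, Gask1a, Aox3, Zfp991, Sdr9c7), and centring the arrays 3 higher (Tuba8, Etnppl, H1f2) and 3 lower (Slc17a8, Osgin1, Gask1a), although it shifted differences by only -0.0091 and 0.00081. Fewer genes are adjusted over in the former, and the cause in the latter was not tested. An adjusted p under 0.1 changed neither count. Past 2-fold in both weeks there were 15 higher and 6 lower genes. The replicate block changed no other call. Among the named genes, 9 changed sign when 1 pool was left out. With either LF-HP pool left out, Fasn ranged from -0.85 to 0.30, Sqle from -0.47 to 0.29 (0.19 without HF-NP at 1 week), Igfbp1 from -0.045 to 1.22, Cidec from -0.0050 to 0.11 and Myc from -0.0020 to 1.61. With either HF-NP pool left out, Itgam ranged from -0.11 to 0.0053, Marco from -0.0081 to 0.30, Trem2 from -0.069 to 0.22 and Cyp4a14 from -0.056 to 0.56. For 44 of 200 list medians and settings the value moved by more than 1 SD of the 2 weeks, 37 of them a single week alone.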
